A study of Homo sapiens with 6 samples.

Results

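The genes described here are the transcriptional coactivators YAP1 and WWTR1 (the gene of TAZ), their DNA-binding partners TEAD1 and TEAD4, and 6 genes known as targets of the complex, AMOTL2, ANKRD1, AJUBA, LATS2, CCN1 (formerly CYR61) and CCN2 (formerly CTGF). They were taken by name from the deposited expression table, and all 10 were found among its 31016 genes. The table holds RNA levels of DLD-1, an epithelial line from a human colorectal adenocarcinoma. TGFb_TFA 1 to 3 are 3 libraries from a combined treatment with TGF-β and TFA, which stands for total flavones from Abelmoschus manihot, and TGFb 1 to 3 are 3 libraries from TGF-β alone. TGF-β is therefore common to both groups, and cells without it were not analysed here. The labels give treatment times of 24, 25 and 26 h for libraries 1, 2 and 3 of each group, so time and library number cannot be told apart. Steps of 1 h that follow the library number may be an error of entry rather than real times, and the hours were used in no fit. No dose is given in the sources used here. All libraries come from 1 cell line, and nothing in the labels says that they are separate cultures, so p-values measure only the spread between these libraries, which may be technical.

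In the Hippo pathway, the kinases MST1 and MST2 (genes STK4 and STK3) activate LATS1 and LATS2, which phosphorylate YAP and TAZ and keep them out of the nucleus. Unphosphorylated YAP and TAZ enter the nucleus, bind TEAD proteins on DNA and switch on genes of growth, matrix and cytoskeleton. Several of these targets, among them LATS2 and AMOTL2, encode inhibitors of YAP and so form a feedback loop, and YAP is often raised in colorectal tumours. RNA levels do not measure the phosphorylation or location of YAP and TAZ.

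TEAD proteins bind the word GGAATG, read as CATTCC on the other strand. RefSeq start-site windows (build GRCh38.p14, 250 bases before to 50 bases after the start) were at hand for 7 of the 10 genes, in 10 windows, and not for TEAD1, TEAD4 and CCN1. The word was found in 1 window each of 6 of these genes: 3 times in CCN2, 2 times in ANKRD1, and once in YAP1, AMOTL2, AJUBA and LATS2. Of all 35116 windows in the RefSeq table, 14% held it at least once, 1.37% at least 2 times and 0.128% at least 3 times. In CCN2 the words begin 169, 104 and 95 bases before the start, in ANKRD1 220 and 128, in YAP1 162, in AMOTL2 69 and in AJUBA 59 bases before it, and in LATS2 at base 10 counted from the start. The windows of CCN2 and ANKRD1 are shown because they hold the word more than once, and that of AMOTL2 because it holds the reverse form. Each runs 5′ to 3′ on the gene's strand, with GGAATG or CATTCC in capitals.
CCN2, chr6:131951323-131951622, minus strand: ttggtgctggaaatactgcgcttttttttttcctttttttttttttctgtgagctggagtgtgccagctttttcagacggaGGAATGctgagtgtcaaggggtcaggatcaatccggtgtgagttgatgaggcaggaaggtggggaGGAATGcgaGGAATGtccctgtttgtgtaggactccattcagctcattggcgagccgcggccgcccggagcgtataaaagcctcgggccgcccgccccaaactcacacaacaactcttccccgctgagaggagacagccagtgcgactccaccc
ANKRD1, chr10:90921038-90921337, minus strand: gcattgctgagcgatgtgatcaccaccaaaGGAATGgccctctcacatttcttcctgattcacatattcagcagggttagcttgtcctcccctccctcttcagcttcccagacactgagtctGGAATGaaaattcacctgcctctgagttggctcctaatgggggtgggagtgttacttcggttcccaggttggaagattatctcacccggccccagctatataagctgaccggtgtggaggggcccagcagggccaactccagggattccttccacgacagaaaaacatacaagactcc
AMOTL2, chr3:134374398-134374697, minus strand: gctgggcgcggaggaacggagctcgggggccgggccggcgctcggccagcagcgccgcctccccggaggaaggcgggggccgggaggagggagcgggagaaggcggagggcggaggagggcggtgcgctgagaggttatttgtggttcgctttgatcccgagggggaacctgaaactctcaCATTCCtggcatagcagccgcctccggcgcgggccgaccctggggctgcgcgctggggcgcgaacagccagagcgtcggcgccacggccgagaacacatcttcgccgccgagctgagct

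The same windows were searched on both strands for TGANTCA (the word of AP-1, a frequent neighbour of TEAD), for CAGAC or GTCTG (bound by the TGF-β effectors SMAD3 and SMAD4), and for GCGTG or CACGC (the core of the aryl hydrocarbon receptor site). The AP-1 word was found once, in ANKRD1 (7.71% of all windows). A SMAD word was found in 7 windows of 6 genes (45.3% of all windows), once in CCN2 and 2 times in ANKRD1. The aryl hydrocarbon receptor core was in 3 windows, of WWTR1, AMOTL2 and AJUBA (36.5% of all windows), and in neither CCN2 nor ANKRD1. In ANKRD1 the GTCTG word that begins at base 119 of the window shares its last base with the GGAATG word that begins at base 123. These matches describe the letters of the windows only.

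Total estimated counts ran from 60361756 to 62304157 per TGFb_TFA library and from 62981239 to 68745953 per TGFb library, and all 10 genes passed the filter on low counts. No source used here says how many counts 1 fragment adds, so these totals are not numbers of fragments. The libraries differed by transcript length. With genes split into 10 classes by effective length (the ratio of count to FPKM), the median deviation from a gene's 6-library mean in TGFb_TFA 3 was 0.36 in the shortest class and -0.33 in the longest (log2 CPM). TGFb 2 leaned the same way more weakly, with 0.099 and -0.16, and in the other 4 libraries the longest class lay between 0.087 and 0.20. KRT18, KRT8 and EPCAM, epithelial markers, were abundant in every library (KRT18 at 625 to 769 FPKM in TGFb_TFA and 702 to 906 FPKM in TGFb libraries). Of the intestinal markers CDX2 and KRT20 were present, VIL1 and LGALS4 stayed at or below 0.302 FPKM, CEACAM5 was listed at 0 in 3 of the 6 libraries, and CDX1 has no row in the table used here. Fibroblast markers (12 genes) summed to 0.524 to 2.48 FPKM in the TGFb_TFA libraries and to 0.0630 to 0.403 FPKM in the TGFb libraries, with DCN, LUM, COL3A1 and POSTN listed at 0 in all TGFb libraries and in TGFb_TFA 1. Of these markers 8 were tested, and all 8 had fitted values above 0, beside 48.1% of all tested genes below 0. By edgeR 0 were called, and 5 had an unadjusted p under 0.05, beside 1.07% of all tested genes that were higher at that p. A marker could pass the filter on low counts through the TGFb_TFA libraries alone. PDGFRA, for example, had 11, 12 and 18 estimated counts in TGFb_TFA 1 to 3 and 0, 0 and 4 in TGFb 1 to 3. These numbers of markers are therefore no test of a difference. In bulk RNA a change in the number of cells of a type and a change in RNA per cell cannot be told apart.

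For none of the 10 genes did the difference between TGF-β with TFA and TGF-β alone pass the test. In edgeR's quasi-likelihood test each had a Benjamini-Hochberg adjusted p of 0.9997. By this test 0 of the 10 were called at an adjusted p under 0.05, beside 0.0109% of 18265 tested genes. Likewise 0 of the 10 had an unadjusted p under 0.05, beside 1.83% of all tested genes (1.07% higher and 0.761% lower). The DESeq2 Wald test and limma-trend on log2 FPKM also called 0 of the 10, and gave 0 with an unadjusted p under 0.05. Fitted values ran from -0.29 (LATS2) to 0.16 (WWTR1) on the log2 scale with a median of -0.09, beside a median of 0.01 over all tested genes, and 6 of the 10 lay below 0, beside 48.1% of all tested genes. The narrowest 95% interval belonged to AJUBA, 0.87-fold to 1.24-fold, and the widest to TEAD1, 0.49-fold to 1.75-fold.

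**Figure D1:**
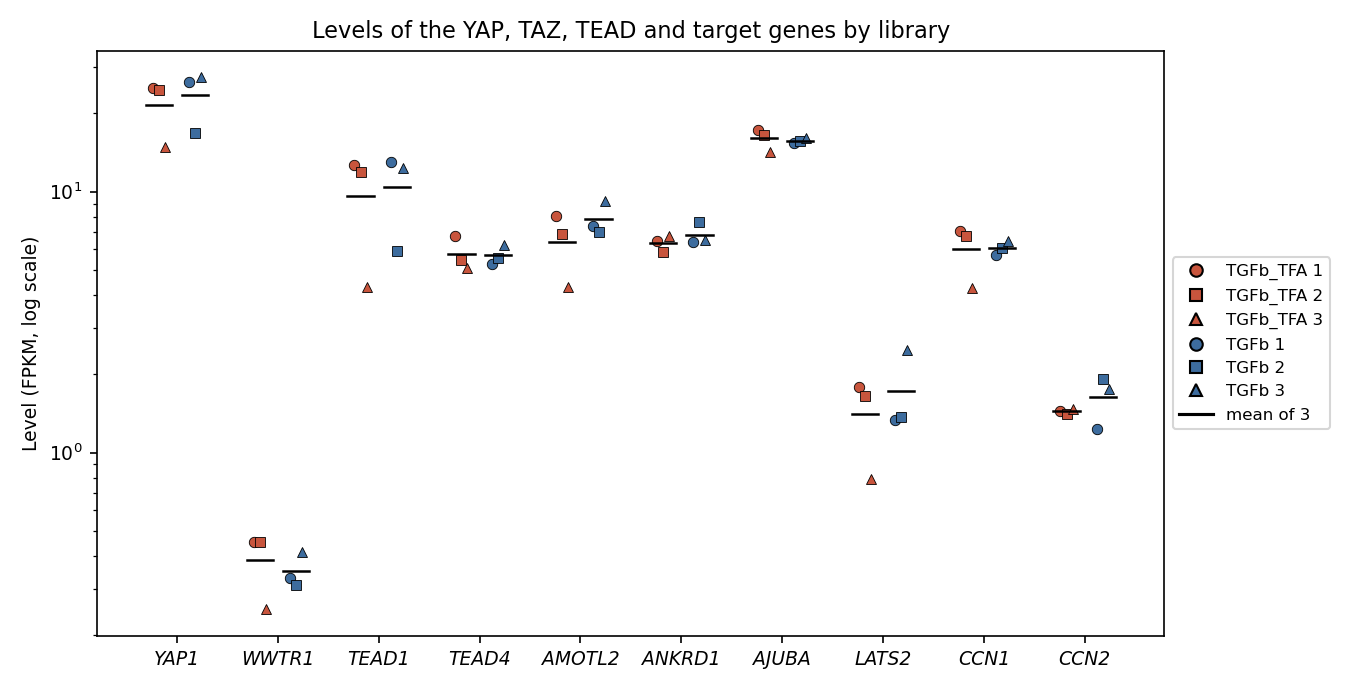
Level of each gene in FPKM (vertical axis, log scale) in the 3 TGFb_TFA libraries (red, left) and the 3 TGFb libraries (blue, right); marker shape gives the library number and the line is the mean of 3. YAP1 and AJUBA stand highest and WWTR1 lowest in both groups, and the triangle of TGFb_TFA 3 lies lowest of all 6 libraries for every gene except ANKRD1 and CCN2. In TMM-scaled CPM, not shown here, TGFb_TFA 3 is lowest in 6 of the 10 genes, beside 30.1% of all tested genes, and TGFb 1 is lowest for TEAD4 and AJUBA.

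By length-corrected level the 10 genes kept almost the same order in both groups. YAP1 stood first with 21.5 ± 5.74 FPKM in TGFb_TFA and 23.5 ± 5.80 FPKM in TGFb libraries (SD, n = 3 each), followed by AJUBA (16.0 ± 1.59 and 15.7 ± 0.374 FPKM) and TEAD1 (9.62 ± 4.62 and 10.4 ± 3.91 FPKM). AMOTL2, ANKRD1, CCN1 and TEAD4 followed between 5.70 and 7.87 FPKM, and each overlapped the next in that order in both groups, as TEAD1 overlapped AMOTL2. CCN2 and LATS2 were close to each other, at 1.44 ± 0.0325 and 1.41 ± 0.534 FPKM in TGFb_TFA and 1.63 ± 0.361 and 1.72 ± 0.646 FPKM in TGFb libraries, with overlapping ranges. WWTR1 was last at 0.387 ± 0.118 FPKM in TGFb_TFA and 0.353 ± 0.0558 FPKM in TGFb libraries. YAP1 and AJUBA overlapped in the TGFb_TFA group, where TGFb_TFA 3 held the lowest value of both, and not in the TGFb group.

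Of the 2 coactivators, YAP1 supplied nearly all of the RNA. It had 25.0, 24.6 and 14.9 FPKM in TGFb_TFA 1 to 3, against 26.3, 16.8 and 27.4 FPKM in TGFb 1 to 3. The groups overlapped, and 1 library of each stood below the other 4. The fitted log2 fold change of YAP1 was -0.11 (SE 0.22; 95% interval -0.63 to 0.40). WWTR1, the gene of TAZ, had 0.455, 0.456 and 0.251 FPKM in TGFb_TFA 1 to 3, against 0.330, 0.312 and 0.416 FPKM in TGFb 1 to 3, again overlapping. For WWTR1 the fit gave 0.16 (SE 0.24; interval -0.41 to 0.72), on 145 to 269 estimated counts per library. It was 0.33 without TGFb_TFA 3 and 0.043 without TGFb_TFA 2. The ratio of YAP1 to WWTR1 in FPKM was 53.9 to 59.1 in the TGFb_TFA libraries and 54.0 to 79.6 in the TGFb libraries, so YAP1 made up 98.2% to 98.8% of their summed level over all 6 libraries.

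TEAD1, a TEA-domain factor through which YAP and TAZ reach DNA, had 12.7, 11.9 and 4.30 FPKM in TGFb_TFA 1 to 3, against 13.0, 5.91 and 12.4 FPKM in TGFb 1 to 3. As for YAP1, TGFb_TFA 3 and TGFb 2 stood low and the other 4 libraries lay close together. The fitted log2 fold change of TEAD1 was -0.12 (SE 0.40; interval -1.04 to 0.81). TEAD4, its paralog, had 6.77, 5.48 and 5.10 FPKM in the TGFb_TFA libraries, against 5.28, 5.57 and 6.25 FPKM in the TGFb libraries, with no library apart. For TEAD4 the fitted value was 0.05 (SE 0.15; interval -0.29 to 0.39). TEAD2 (4.32 ± 0.437 FPKM in TGFb_TFA and 4.80 ± 0.668 FPKM in TGFb libraries) and TEAD3 (2.37 ± 0.452 and 2.48 ± 0.382 FPKM) were also present (SD, n = 3 each), so all 4 TEAD genes were transcribed in these cells. The share of TEAD1 in their summed FPKM was 49.0%, 47.5% and 28.0% in TGFb_TFA 1 to 3 and 53.1%, 30.9% and 46.3% in TGFb 1 to 3, while the ratio of TEAD1 to TEAD4 was 0.844 to 2.17 in TGFb_TFA and 1.06 to 2.46 in TGFb libraries. In FPKM, which TEAD gene stood highest thus differed between libraries: in TGFb_TFA 3 alone TEAD4 exceeded TEAD1. The trend of that library along effective length was -0.29 at TEAD1 and 0.20 at TEAD4 (log2 CPM). FPKM does not remove this trend, and its part in the order of TEAD1 and TEAD4 was not tested.

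The next 3 genes are targets whose products act back on the pathway. LATS2, a kinase that phosphorylates YAP and TAZ, had 1.78, 1.64 and 0.794 FPKM in TGFb_TFA 1 to 3, against 1.33, 1.37 and 2.47 FPKM in TGFb 1 to 3. The lowest value lay in TGFb_TFA 3 and the highest in TGFb 3, with the other 4 libraries between them. LATS2 was fitted at -0.29 on the log2 scale (SE 0.32; interval -1.03 to 0.46), at 0.018 without TGFb 3 and at -0.46 without TGFb_TFA 1. LATS1, its paralog, was at a like level (1.45 ± 0.634 and 1.43 ± 0.604 FPKM in TGFb_TFA and TGFb libraries; SD, n = 3 each), with a ratio of LATS1 to LATS2 of 0.910 to 1.10 in TGFb_TFA and 0.584 to 1.12 in TGFb libraries.

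AMOTL2, an angiomotin-like scaffold that holds YAP in the cytoplasm, had 8.07, 6.88 and 4.32 FPKM in TGFb_TFA 1 to 3, against 7.38, 7.01 and 9.22 FPKM in TGFb 1 to 3. TGFb_TFA 3 was low and TGFb 3 high, and TGFb_TFA 1 lay above TGFb 1 and TGFb 2. The fitted log2 fold change of -0.28 (SE 0.20; interval -0.74 to 0.18) was -0.12 without TGFb_TFA 3 and -0.45 without TGFb_TFA 1, the lowest and highest of that group. AMOTL2 made up 90.8% to 94.2% of the summed FPKM of the 3 angiomotin genes in TGFb_TFA and 92.8% to 93.8% in TGFb libraries.

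AJUBA, a LIM-domain protein that binds LATS kinases and restrains them, was the steadiest of the 10 genes. It had 17.3, 16.5 and 14.2 FPKM in TGFb_TFA 1 to 3, against 15.4, 15.6 and 16.1 FPKM in TGFb 1 to 3. In TMM-scaled CPM, the scale of the fit, it had 110, 104 and 105 CPM in TGFb_TFA 1 to 3, against 99.8, 104 and 104 CPM in TGFb 1 to 3. The lowest TGFb_TFA and the highest TGFb library nearly coincided there (104.13 and 104.12 CPM), so the groups did not overlap in CPM, and they overlapped in FPKM. Over all tested genes 7.91% had groups that did not overlap in CPM, with 4.58% higher and 3.33% lower in TGFb_TFA. The other 9 genes overlapped on both scales. AJUBA's highest library was 1.10-fold its lowest in CPM, a spread as small or smaller in 0.712% of tested genes, and AJUBA was fitted at a log2 fold change of 0.05 (SE 0.11; interval -0.21 to 0.31). Its relatives LIMD1 and WTIP were much lower, so that AJUBA held 92.5% to 94.2% of their summed FPKM over all 6 libraries.

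**Figure D2:**
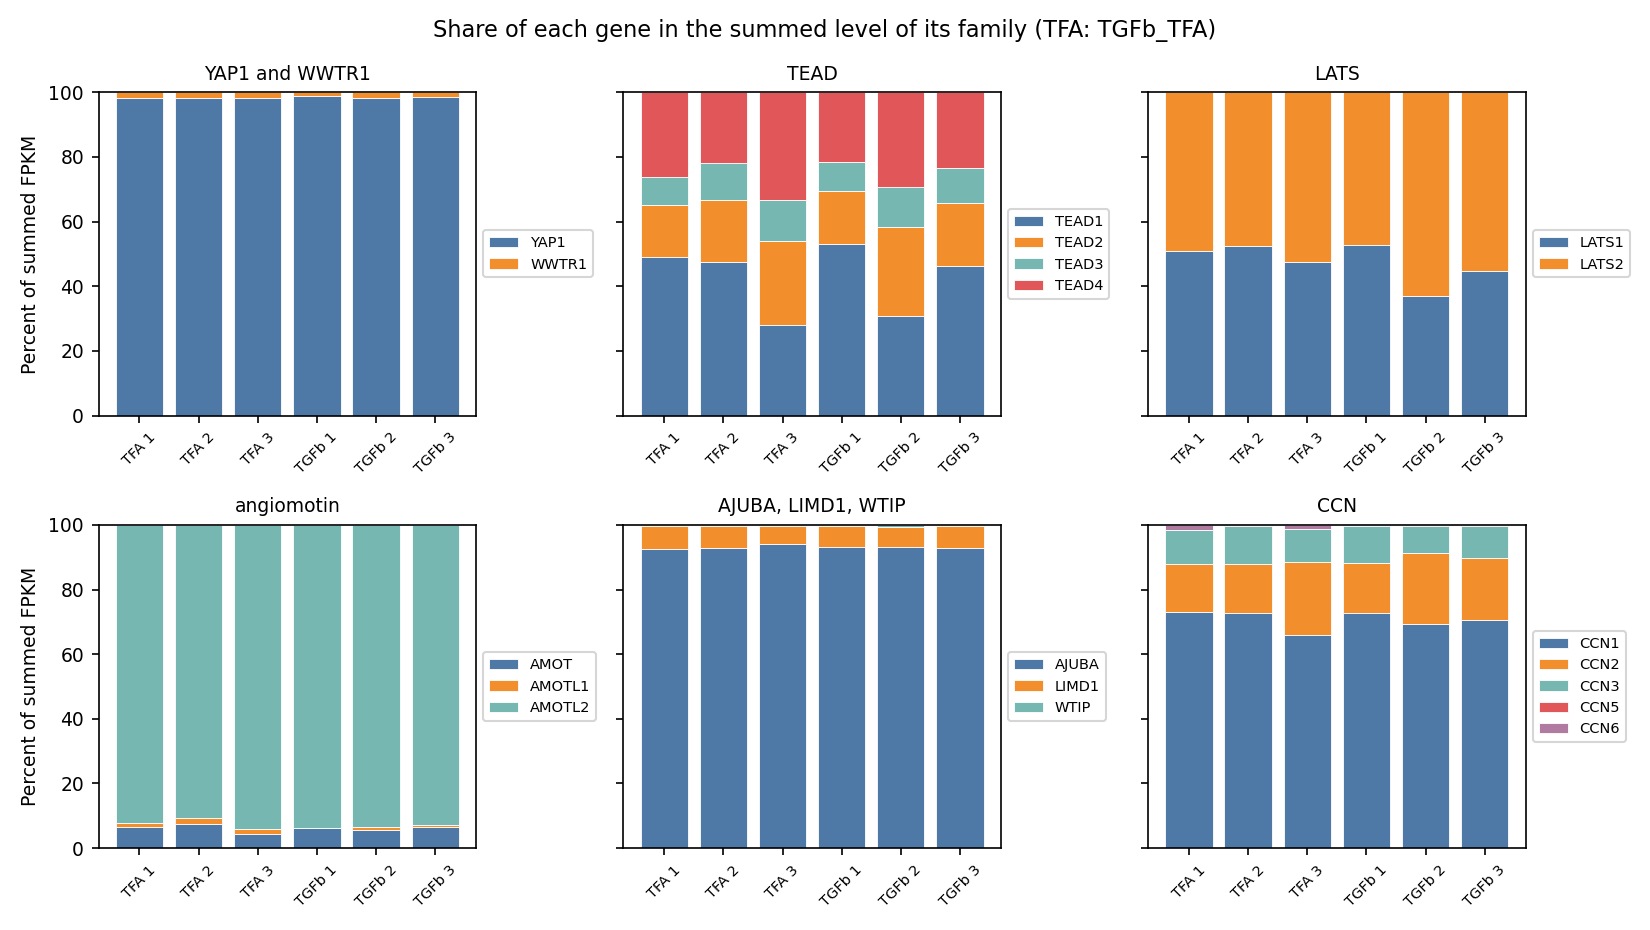
Percent of summed FPKM (vertical axis) that each gene contributes to its family in each library, TGFb_TFA libraries on the left (TFA 1 to 3) and TGFb libraries on the right. YAP1, AMOTL2 and AJUBA dominate their families in all 6 libraries, and LATS1 holds 36.9% to 52.9% of the LATS pair. The TEAD1 share is smallest in TGFb_TFA 3 and TGFb 2 (28.0% and 30.9%). FPKM does not remove the lean of these libraries by transcript length.

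CCN1, CCN2 and ANKRD1 are the target genes most often used as readouts of YAP and TAZ. CCN1, a secreted matricellular protein, had 7.09, 6.76 and 4.25 FPKM in TGFb_TFA 1 to 3, against 5.74, 6.05 and 6.45 FPKM in TGFb 1 to 3. The TGFb libraries lay inside the range of the TGFb_TFA libraries, of which 2 were above and 1 was below them. The fitted log2 fold change of CCN1 was 0.0027 (SE 0.16; interval -0.38 to 0.38), and it was 0.14 without TGFb_TFA 3 and -0.11 without TGFb_TFA 1.

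CCN2, the related connective tissue growth factor and also a target of TGF-β and SMAD signalling, had 1.44, 1.40 and 1.47 FPKM in TGFb_TFA 1 to 3, against 1.23, 1.92 and 1.75 FPKM in TGFb 1 to 3. The TGFb_TFA libraries were nearly equal to each other and lay inside the range of the TGFb libraries. CCN2 was fitted at -0.15 on the log2 scale (SE 0.23; interval -0.68 to 0.39), on 221 to 333 estimated counts per library. ANKRD1, an ankyrin-repeat protein of nucleus and sarcomere best known from heart muscle, had 6.47, 5.88 and 6.78 FPKM in TGFb_TFA 1 to 3, against 6.40, 7.62 and 6.52 FPKM in TGFb 1 to 3. Its groups overlapped and TGFb 2 was highest, as for CCN2. The fitted log2 fold change of ANKRD1 was -0.06 (SE 0.17; interval -0.46 to 0.33).

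CCN1 exceeded CCN2 in every library, by a ratio of 2.90 to 4.92 in FPKM in the TGFb_TFA group and 3.15 to 4.67 in the TGFb group. Of their relatives CCN3 was at 0.930 ± 0.236 FPKM in TGFb_TFA and 0.854 ± 0.0902 FPKM in TGFb libraries (SD, n = 3 each; log2 fold change 0.14, SE 0.23), CCN5 and CCN6 were too low to test, and CCN4 has no row in the table used here. The fibroblast marker sum was higher in every TGFb_TFA than in every TGFb library; fibroblasts also express CCN1 and CCN2, and the part of such RNA in their values was not tested.

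**Figure D3:**
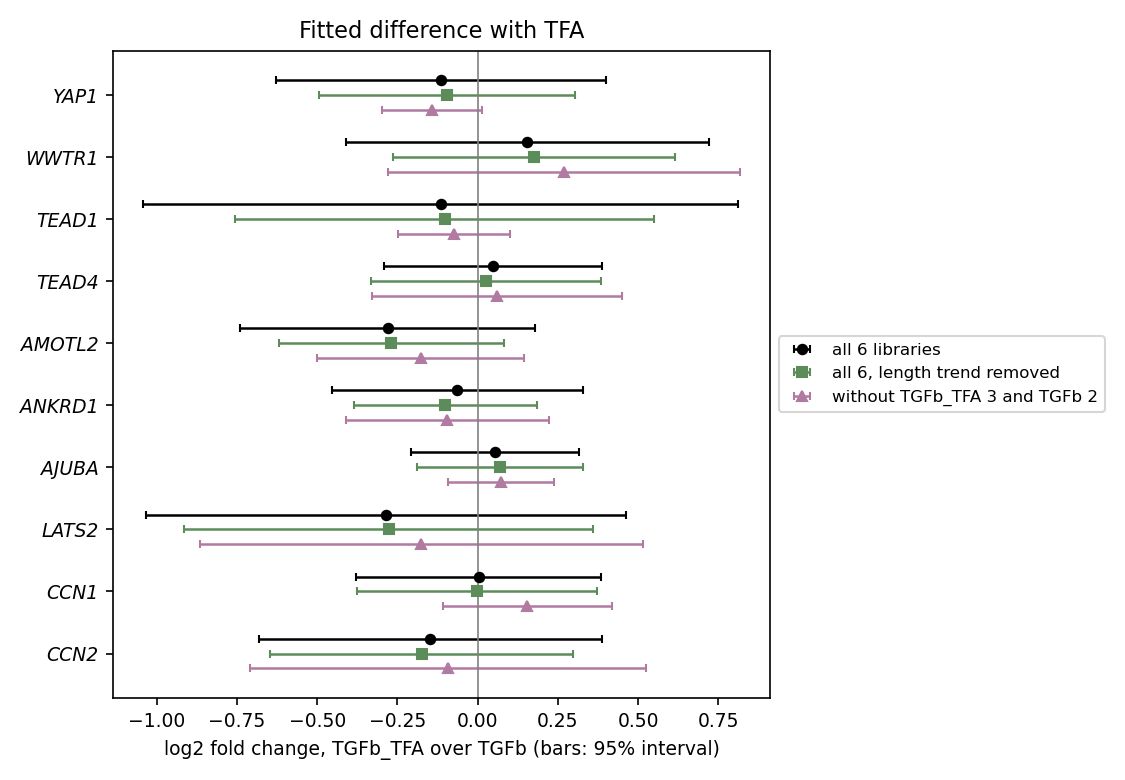
Fitted log2 fold change of TGFb_TFA over TGFb (horizontal axis) with its 95% interval for each gene, over all 6 libraries (black), with each library's trend along effective length removed (green), and without TGFb_TFA 3 and TGFb 2 (purple). All intervals hold 0, and those of TEAD1 and YAP1 are narrowest without these libraries. The libraries left out hold the lowest values of both genes, and this alternative was chosen after seeing the data.

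The spread of YAP1 and TEAD1 within groups followed particular libraries. TGFb_TFA 3 held the lowest CPM of the 6 libraries in 6 of the 10 genes (YAP1, WWTR1, TEAD1, AMOTL2, LATS2 and CCN1), beside 30.1% of all tested genes and 51.8% of the longest 20% by effective length. TGFb_TFA 3 and TGFb 2 were the lowest pair in 3 genes, YAP1, WWTR1 and TEAD1. The share was 21.4% of all tested genes and 46% of the longest 20%. Of the 6 genes lowest in TGFb_TFA 3, only TEAD1 (90.7 percentile) and WWTR1 (82.8) lie in this longest 20%. By effective length YAP1 is at 69.0, AMOTL2 at 66.2, LATS2 at 62.8 and CCN1 at 41.4. By annotated length (longest transcript in GENCODE 29) TEAD1 has 8477 bases and stands at the 94.1 percentile of tested genes, YAP1 has 5398 bases (79.6), LATS2 5511 (80.5), WWTR1 5030 (76.1) and AMOTL2 4521 (70.8). The other genes are AJUBA (4262 bases, 67.4), CCN2 (2339, 35.5), CCN1 (2290, 34.5), ANKRD1 (1979, 27.9) and TEAD4 (1690, 22.3). Of these only CCN1 was lowest in TGFb_TFA 3 in CPM. By effective length, the ratio of count to FPKM, AJUBA (6603) stands above LATS2 (6301), while by annotated length it is the shorter of them. This ratio exceeds the annotated length in all 10 genes, for example 9474 beside 5030 bases in WWTR1. It is therefore no true length in bases. In TGFb_TFA 3 AJUBA lay at 0.013 relative to its mean of the 6 libraries, and LATS2 at -0.73 (log2 CPM).

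For TEAD1 and YAP1 the trend along effective length had the same sign as their deviations in TGFb_TFA 3 and TGFb 2 and was smaller. The cause of these deviations was not tested. TEAD1 lay at -0.93 in TGFb_TFA 3 and -0.63 in TGFb 2 relative to its mean of the 6 libraries (log2 CPM), and 0.783% of tested genes were at least as low in both. The trend at its effective length was -0.29 and -0.14, which left -0.64 and -0.49. YAP1 lay at -0.39 and -0.37, with a trend of -0.13 and -0.051, which left -0.26 and -0.32. For CCN1 the trend in TGFb_TFA 3 ran the other way (0.064, beside a deviation of -0.32). With the trend removed, the fitted log2 fold changes were -0.10 for TEAD1 (interval -0.76 to 0.55) and -0.09 for YAP1 (interval -0.49 to 0.30), and 0 of the 10 genes were called by edgeR.

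Without TGFb_TFA 3 alone the fitted value was 0.20 for TEAD1 and 0.036 for YAP1, and without TGFb 2 alone it was -0.39 for TEAD1 and -0.30 for YAP1. Without both TGFb_TFA 3 and TGFb 2, an alternative chosen after seeing the data, TEAD1 was at -0.07 (interval -0.25 to 0.10) and YAP1 at -0.14 (interval -0.30 to 0.012), with 2 libraries left in each group. In those 4 libraries YAP1 had 171 and 167 CPM in TGFb_TFA 1 and 2, against 183 and 190 CPM in TGFb 1 and 3. TEAD1 had 146 and 137 CPM in TGFb_TFA 1 and 2, against 153 and 145 CPM in TGFb 1 and 3. Neither gene was called there (edgeR quasi-likelihood test, adjusted p = 0.9999 each).

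**Figure D4:**
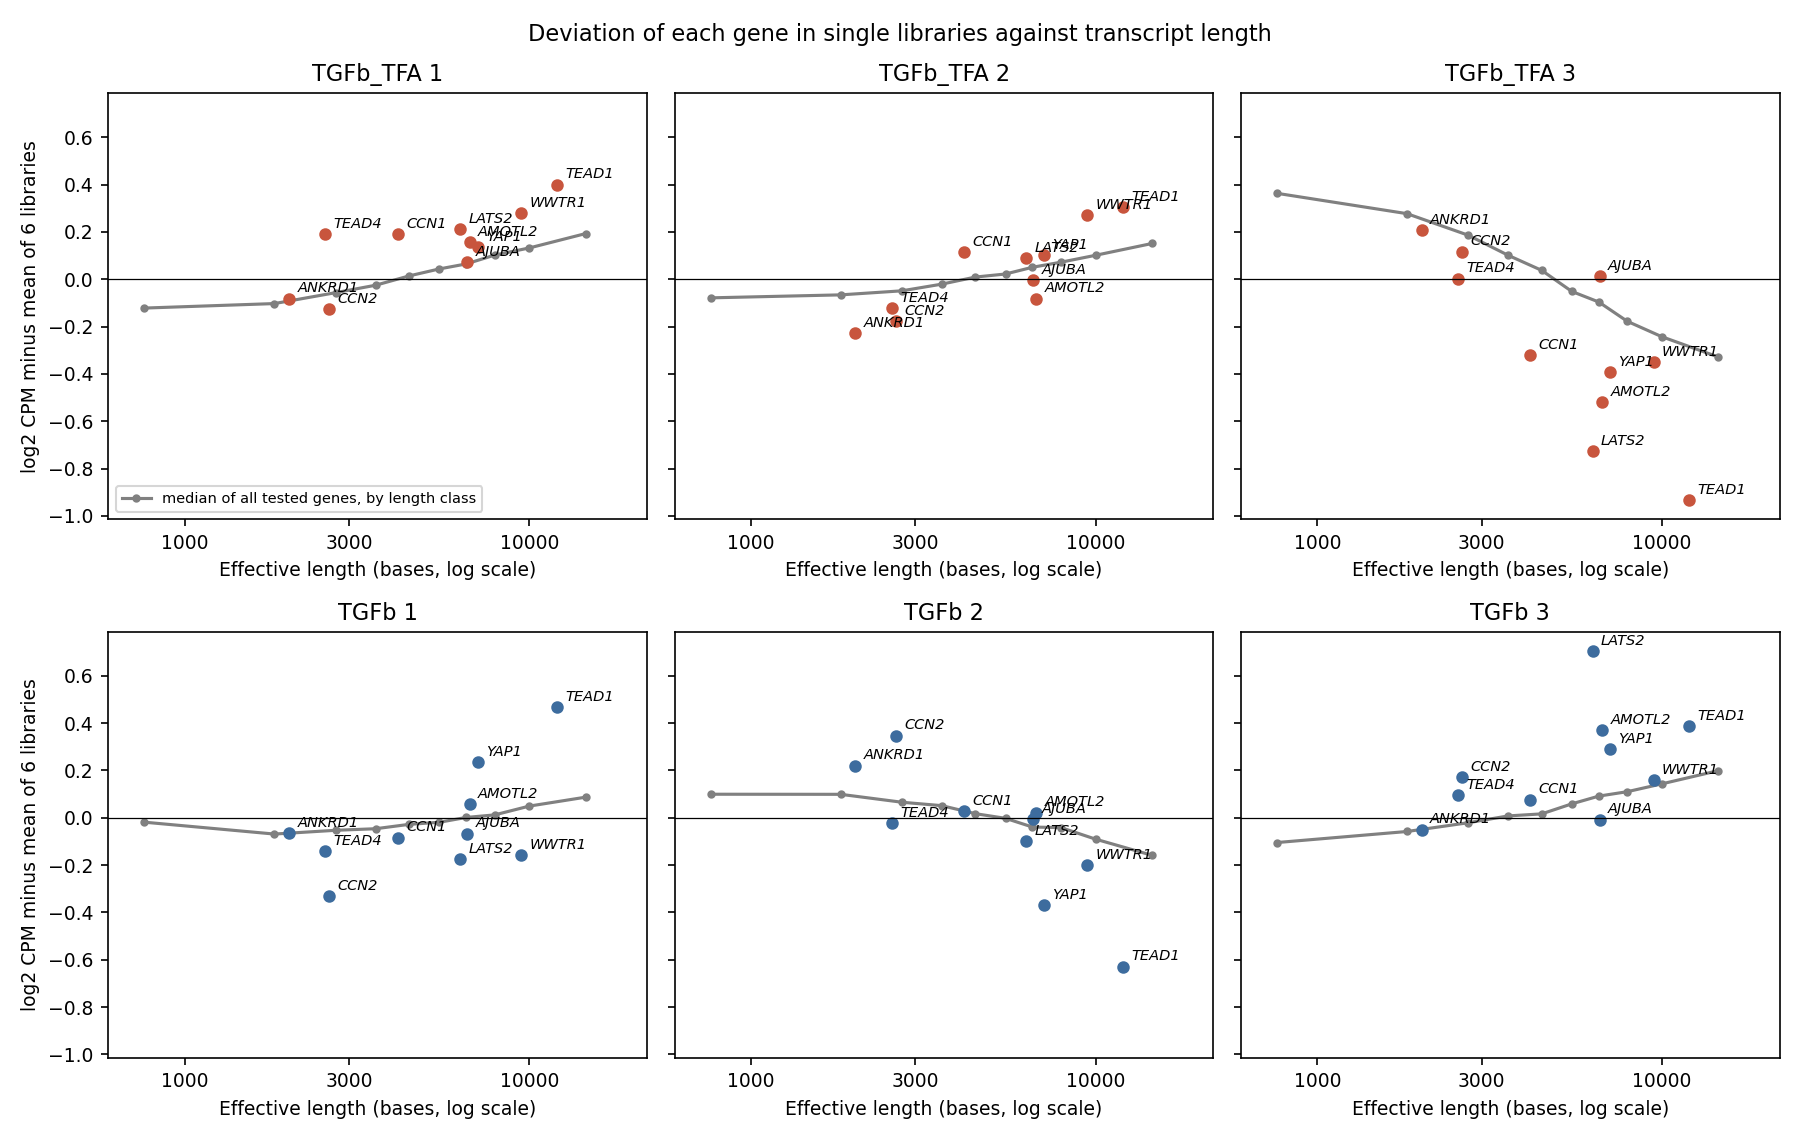
Deviation of each gene in a library from its mean of the 6 libraries (vertical axis, log2 CPM) against effective length in bases (horizontal axis, log scale), 1 panel per library, TGFb_TFA above and TGFb below; the grey line joins the medians of all tested genes in 10 length classes. TEAD1 and YAP1 lie well below the grey line in TGFb_TFA 3 and TGFb 2, and LATS2, AMOTL2 and the shorter CCN1 do so in TGFb_TFA 3. The short genes ANKRD1 and CCN2 lie above 0 in both of these libraries. In TGFb_TFA 3, where the grey line itself is above 0 for short genes, ANKRD1, CCN2 and TEAD4 lie below it.

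Among other genes of the pathway, chosen for their known role, 0 of 80 tested genes were called by edgeR or by DESeq2, which called 2 and 13 genes of the whole table. In edgeR 2 of the 80 had an unadjusted p under 0.05, a share near the 1.83% of all tested genes. Of the 80, 60 had a fitted value below 0 (median -0.08), beside 48.1% of all tested genes. Without TGFb_TFA 3 this number was 33 of 81 (46.9% of all tested genes), and without both TGFb_TFA 3 and TGFb 2 it was 51 of 81 (49.2%).

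Among the Hippo kinases and their cofactors 22 were tested, 16 lay below 0 and 0 had an unadjusted p under 0.05. MOB1A, the activating partner of LATS kinases and the most abundant of them, had 31.6 ± 2.24 FPKM in TGFb_TFA and 29.2 ± 3.24 FPKM in TGFb libraries (SD, n = 3 each; log2 fold change 0.14, SE 0.12). STK38, a LATS-related kinase, was next in abundance (-0.22, SE 0.20). WWC1, the scaffold KIBRA (-0.22, SE 0.17), and NF2, the tumour suppressor merlin (-0.17, SE 0.14), had the lowest unadjusted p values of the list. In CPM only MOB1A of this list had groups that did not overlap (higher in TGFb_TFA), beside 4.58% of all tested genes higher. In FPKM MOB1A overlapped. Among 13 genes of YAP and TAZ binders, LIM proteins and other regulators of the pathway, 11 lay below 0 and 0 had an unadjusted p under 0.05. The LIM protein TRIP6 (-0.05, SE 0.13) and the kinase CSNK1E (-0.04, SE 0.13) were the most abundant, and RASSF1, a scaffold of MST kinases (-0.22, SE 0.14), and AMOTL1, an angiomotin (1.15, SE 1.04, with a count of 0 in TGFb 1), had the lowest unadjusted p values. Of 5 tested TEAD and VGLL genes 4 lay below 0 and 0 had an unadjusted p under 0.05. VGLL4, which competes with YAP for TEAD, was at -0.25 (SE 0.16), TEAD2 at -0.12 (SE 0.16) and TEAD3 at -0.04 (SE 0.18).

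Of 17 further genes of a published YAP target signature 16 were tested, 12 lay below 0 and 0 had an unadjusted p under 0.05. NT5E, the ectonucleotidase CD73, was the most abundant at 41.5 ± 7.52 FPKM in TGFb_TFA and 45.8 ± 6.13 FPKM in TGFb libraries (SD, n = 3 each; log2 fold change -0.12, SE 0.15). It was followed by MYOF, the membrane-repair protein myoferlin (-0.04, SE 0.34), and the lowest unadjusted p values belonged to IGFBP3, an insulin-like growth factor carrier (0.75, SE 0.43), and CCDC80, a matrix protein (0.32, SE 0.20). In CPM CCDC80 was higher in all TGFb_TFA than in all TGFb libraries. GADD45A, a stress-response gene named after its values were seen, was lower in all TGFb_TFA libraries (-0.07, SE 0.12). They were the only such genes of the 16, beside 4.58% of all tested genes higher and 3.33% lower. In FPKM both overlapped.

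Among 15 polarity and junction genes upstream of the pathway, 12 lay below 0 and 1 had an unadjusted p under 0.05. That gene was DCHS1, a giant cadherin, at 0.0449 ± 0.0285 FPKM in TGFb_TFA and 0.0150 ± 0.00393 FPKM in TGFb libraries (SD, n = 3 each; log2 fold change 1.57, SE 0.60, adjusted p = 0.9997 in edgeR's quasi-likelihood test), on 8 to 59 estimated counts. FAT4, its binding partner (1.51, SE 1.10, with a count of 0 in TGFb 1), came next by unadjusted p. The most abundant were FAT1, another giant cadherin (-0.10, SE 0.59), and CTNNA1, α-catenin (-0.14, SE 0.12). DCHS1 had 20, 59 and 23 estimated counts in TGFb_TFA 1 to 3 and 15, 14 and 8 in TGFb 1 to 3. DCHS1 and FAT4 could pass the filter on low counts through the TGFb_TFA libraries alone. Their fitted values are therefore no test of a difference. Among 9 tested genes of SRF and its cofactors, which share CCN1, CCN2 and ANKRD1 as targets with YAP, 6 lay below 0 and 1 had an unadjusted p under 0.05. It was MYL9, a smooth-muscle myosin light chain, at 0.212 ± 0.0550 FPKM in TGFb_TFA and 0.0864 ± 0.0416 FPKM in TGFb libraries (SD, n = 3 each; log2 fold change 1.31, SE 0.53, adjusted p = 0.9997 in edgeR's quasi-likelihood test). TAGLN, an actin-binding protein of smooth muscle, was at 0.81 (SE 0.39), and VCL, the focal-adhesion protein vinculin, at -0.40 (SE 0.21), while the abundant tropomyosin gene TPM1 was at -0.01 (SE 0.13). DCHS1 and MYL9, named here for their low unadjusted p, are expressed in stromal cells too. Both were higher in all TGFb_TFA than in all TGFb libraries, beside 4.58% of all tested genes in CPM. In the SRF list TAGLN overlapped. ACTA2, named after its values were seen, was fitted the other way (-0.33, SE 0.29) and overlapped. The fibroblast marker sum was also higher in all TGFb_TFA libraries (0.524 to 2.48 FPKM in TGFb_TFA and 0.0630 to 0.403 FPKM in TGFb libraries). The part of such RNA in the values of DCHS1 and MYL9 was not tested.

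The genes lie on 8 chromosomes (GRCh38, positions as in the table). YAP1 (ENSG00000137693) spans 102110447 to 102233424 on the plus strand of chromosome 11, which also carries TEAD1 (ENSG00000187079, 12674421 to 12944737, plus strand). TEAD4 (ENSG00000197905) spans 2959330 to 3040676 on the plus strand of chromosome 12. WWTR1 (ENSG00000018408) and AMOTL2 (ENSG00000114019) lie on the minus strand of chromosome 3, at 149517235 to 149736714 and 134355874 to 134374594. LATS2 (ENSG00000150457) spans 20973036 to 21061586 on chromosome 13, AJUBA (ENSG00000129474) 22971177 to 22982551 on chromosome 14 and ANKRD1 (ENSG00000148677) 90912096 to 90921087 on chromosome 10, all on the minus strand. CCN1 (ENSG00000142871) spans 85580761 to 85583950 on the plus strand of chromosome 1 and CCN2 (ENSG00000118523) 131948176 to 131951372 on the minus strand of chromosome 6. Genes of the table that overlap YAP1, WWTR1, TEAD1 or AMOTL2 had at most 40, 5, 3 and 9 estimated counts in any library, against at least 6384, 145, 3134 and 1763 for these genes.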

How the data were processed

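Poly(A) RNA of 6 DLD-1 libraries was sequenced with strand-keeping dUTP libraries that carried unique molecular identifiers, per the labels' protocols; no source used here says whether counting made use of either. Named without roles in the submitters' processing notes are the build GRCh38 and the tools StringTie 1.3.4d, HISAT2 2.0.4 and cutadapt 1.9. The authors deposited FPKM values and an estimated count per gene and library; the estimated counts are whole numbers that may be derived from coverage, so counting intervals were not computed. FPKM values are the authors' and correct for length and library total.

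The estimated counts were fitted in edgeR 4.0.16 (R 4.3.3): filterByExpr, TMM scaling, quasi-likelihood test with group as the only term (2-sided), Benjamini-Hochberg adjustment over 18265 genes, with a call at an adjusted p under 0.05. CPM values use the TMM-scaled library size, and FPKM values do not. The standard error is the log2 fold change over the square root of F. Alternatives used DESeq2 1.42.0 and limma 3.58.1, other filters and pseudocounts (0.1, 0.5 and 1 FPKM), counts divided by 4, length-trend offsets (loess, span 0.3, along count over FPKM), a replicate block, and libraries left out. Tested on simulated counts were edgeR (main, DESeq2 size factors, length-trend offsets and replicate block), DESeq2, and limma-trend on CPM with a pseudocount of 0.5. The simulated counts held no length trend, and the other alternatives were not tested on them. The genes and lists were chosen with earlier results of these data known. Named genes were the 10 in full and, of each list, called genes, the 2 most abundant and the 2 with the lowest unadjusted p. Whole-list markers of endothelial cells (8 genes found) summed to 2.04 to 2.38 FPKM in TGFb_TFA and 1.55 to 1.99 FPKM in TGFb libraries, and haematopoietic markers (6 genes found) to 0.346 to 0.697 and 0.360 to 0.538 FPKM.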

Additional observations from a re-analysis of the deposited data

How the results depend on the processing

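No alternative called any of the 10 genes: in 179 values over 18 alternatives (WWTR1 was below the filter of a mean FPKM of at least 1), 0 passed, 0 had an unadjusted p under 0.05, and the smallest unadjusted p was 0.0605 (AMOTL2 without TGFb_TFA 1, edgeR). The number of the 10 fitted below 0 was 4 to 8 (4 without TGFb_TFA 3 or without TGFb 2, 8 without TGFb_TFA 1), and 0 other pathway genes were called in each alternative. Leaving out 1 library at a time gave -0.30 to 0.036 for YAP1, 0.043 to 0.33 for WWTR1, -0.39 to 0.20 for TEAD1, -0.048 to 0.10 for TEAD4, -0.45 to -0.12 for AMOTL2, -0.20 to 0.036 for ANKRD1, 0.020 to 0.065 for AJUBA, -0.46 to 0.018 for LATS2, -0.11 to 0.14 for CCN1 and -0.33 to 0.0020 for CCN2 (log2 fold change). The sign turned in 21 values. YAP1 was at 0.036 without TGFb_TFA 3 and 0.11 without both TGFb_TFA 3 and TGFb 1. TEAD1 was at 0.20 without TGFb_TFA 3, 0.074 without TGFb 1 and 0.38 without both TGFb_TFA 3 and TGFb 1. TEAD4 was at -0.048 without TGFb_TFA 1, -0.013 without TGFb 1 and -0.0089 without both TGFb_TFA 3 and TGFb 1. ANKRD1 was at 0.013 without TGFb_TFA 2 and 0.036 without TGFb 2, CCN2 at 0.0020 without TGFb 2, and LATS2 at 0.018 without TGFb 3. CCN1, at 0.0027 with all 6 libraries, was at -0.0034 with no filter, -0.044, -0.039 and -0.034 in limma-trend with pseudocounts of 0.1, 0.5 and 1 FPKM, -0.0022 with length-trend offsets, -0.012 with the replicate block, and -0.11, -0.068 and -0.046 without TGFb_TFA 1, TGFb_TFA 2 and TGFb 1; the cause was not tested. Over the whole table edgeR called 2 genes, DESeq2 13, edgeR with the replicate block 1, and edgeR without 1 library 1 to 3. Deviations of same-numbered libraries from their group means had r across genes of 0.108, -0.326 and -0.335 for numbers 1, 2 and 3. TGFb_TFA 3 was closest to TGFb 2 (0.457), which leaned the same way by transcript length. With such a shared lean, r cannot tell whether the numbers pair the libraries. The labels state no pairing, and the main fit used none. The block called 0 of the 10 genes. With 3 libraries a group, differences within the printed intervals could not be seen at this precision.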
